A study of Homo sapiens with 4 samples.

Results

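DHRS2 and DHRS3 encode a pair of short-chain dehydrogenases/reductases (SDRs). Their mRNAs were measured in HCT116 cells, a human colorectal carcinoma cell line, under 4 conditions. The 2 genes were taken by their platform gene symbols, out of 14884 genes with a named probe set. They were chosen by their measured log2 differences with the histone deacetylase inhibitor (HDACi) MS-275, which run in opposite directions, so that their MS-275 values are a description and support nothing by themselves. Each gene had 1 transcript cluster, which is the set of array probes summarised into 1 value. The cells received 2 µM MS-275 together with 1 mM hydroxyurea, 2 µM MS-275 alone or 1 mM hydroxyurea alone for 24 h, or were left untreated. MS-275, or entinostat, is an inhibitor of class I histone deacetylases. Hydroxyurea depletes deoxyribonucleotides through its action on ribonucleotide reductase, which stalls replication forks. Each condition was measured on 1 Affymetrix whole-transcript array, 4 in all. There were thus no replicates, no p-value is given, and precision is limited by this number of arrays. Fewer cells expressing a gene and less RNA per cell cannot be told apart in such bulk samples.

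SDRs are NAD(H)- or NADP(H)-dependent oxidoreductases that share a nucleotide-binding fold and act on steroids, retinoids, prostaglandins and small carbonyl compounds. DHRS2, also called HEP27, reduces dicarbonyl compounds and is found in mitochondria and in the nucleus, where it can bind the ubiquitin ligase MDM2. DHRS3, also called retSDR1, is a membrane-bound enzyme of the endoplasmic reticulum and lipid droplets that reduces all-trans-retinal to retinol. It thereby takes substrate away from the synthesis of retinoic acid, and its own gene is known to respond to retinoic acid.

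The sequences upstream of the genes are shown as a description, and their part in the measured differences was not tested. RefSeq gave promoter windows for 2 of the 2 genes (build GRCh38.p14). Printed are the 250 bases before the annotated gene start, 5′ to 3′ on the strand of the gene, with GC boxes (GGGCGG) and TATA boxes (TATAAA), searched on both strands, in capitals. The DHRS2 window is chr14:23629865-23630114 on the plus strand and the DHRS3 window is chr1:12618211-12618460 on the minus strand.
DHRS2: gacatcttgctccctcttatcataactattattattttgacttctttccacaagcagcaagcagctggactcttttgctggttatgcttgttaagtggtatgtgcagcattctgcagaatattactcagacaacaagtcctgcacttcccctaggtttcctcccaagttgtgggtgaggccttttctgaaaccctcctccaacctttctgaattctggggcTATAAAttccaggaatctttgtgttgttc
DHRS3: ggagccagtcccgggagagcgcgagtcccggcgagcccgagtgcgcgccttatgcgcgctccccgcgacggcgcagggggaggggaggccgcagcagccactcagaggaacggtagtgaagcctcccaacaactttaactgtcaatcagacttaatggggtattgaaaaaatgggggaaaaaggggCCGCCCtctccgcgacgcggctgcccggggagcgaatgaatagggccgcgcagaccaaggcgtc
The DHRS2 window held no CpG dinucleotide (0) and 43.2% G and C. Of 35116 such windows, 6.06% were without a CpG, and the median was 11 CpGs. Its single TATAAA lay on the plus strand at positions -29 to -24 from the start, and 10.7% of all windows held this motif. The DHRS3 window held 26 CpGs and 65.2% G and C, and 80.4% of all windows had fewer CpGs. It held 1 GC box, written as its reverse complement CCGCCC, at -64 to -59, a motif found in 42.6% of windows. Of the other motifs searched, the E-box CANNTG was found at 1 place in the DHRS2 window and at 0 in that of DHRS3 (61.8% of all windows held it). The retinoic acid receptor half-site AGGTCA was found in neither window, against 12.1% of all windows. RefSeq gives DHRS3 another 2 start sites. The windows before them held 10 and 3 CpGs, 58.8% and 54.8% G and C, and no GC box. The window with 3 CpGs held AGGTCA and 3 E-boxes. The arrays do not show which start was used, and a match of letters is not a binding site.

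DHRS2 mRNA was high on the arrays with MS-275 and low on those without it. Its RMA intensity, on a linear scale, was 419 with MS-275/hydroxyurea, 218 with MS-275, 65.6 with hydroxyurea and 49.1 in untreated cells. Of all 53617 clusters on the array of untreated cells, 51.4% were dimmer than that of DHRS2, so the gene lay at the middle of a range where many clusters are near background. With MS-275/hydroxyurea, 90.8% of clusters were dimmer. With MS-275 this share was 83.3% and with hydroxyurea 60.3%.

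DHRS3 mRNA had the reverse order. Its intensity was 95.3 with MS-275/hydroxyurea, 114 with MS-275, 256 with hydroxyurea and 380 in untreated cells. With MS-275/hydroxyurea 68.7% of all clusters were dimmer. This share was 72.4% for MS-275, 85.1% for hydroxyurea and 89.8% for untreated cells. Unlike DHRS2, the gene stayed above the filter on dim genes in each of the 4 conditions. The filter is a mean log2 intensity over the 4 arrays at or above the median of named clusters, which is an intensity of 90.5, and 7649 genes passed it. Both genes are among these, but DHRS2 passed only through the 2 arrays with MS-275.

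**Figure D1:**
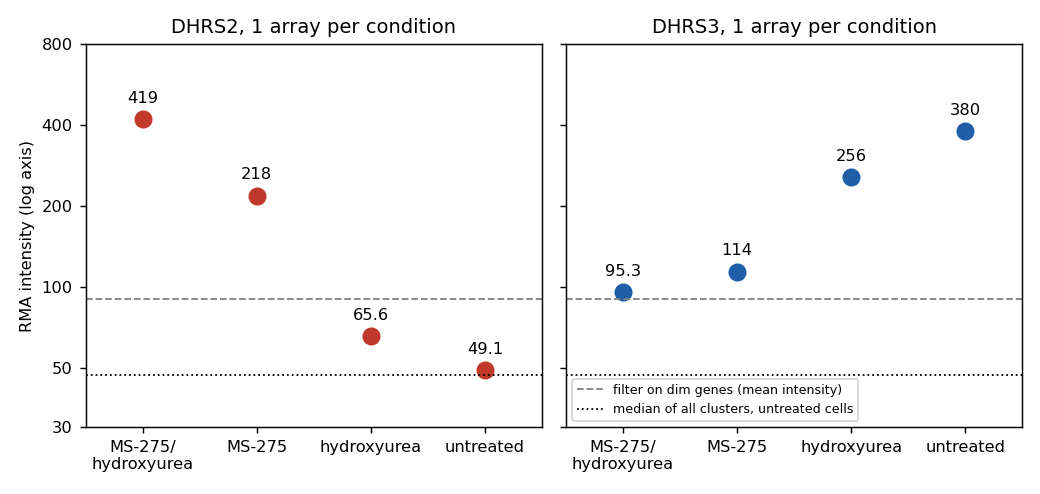
RMA intensity (log axis) of DHRS2 and DHRS3 in MS-275/hydroxyurea-treated, MS-275-treated, hydroxyurea-treated and untreated HCT116 cells; each point is 1 array, without replicate error. DHRS2 ran from 419 with both drugs to 49.1 in untreated cells and DHRS3 from 95.3 with both drugs to 380 in untreated cells; the dashed line is the filter on dim genes (90.5) and the dotted line the median of all clusters in untreated cells (47.0).

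To see how far these genes stood from the others, log2 differences were ranked over the 7649 genes. DHRS2 was 4.44-fold higher with MS-275 than in untreated cells, a log2 difference of 2.15 and the 9th highest. With hydroxyurea present, it was 6.39-fold higher (MS-275/hydroxyurea against hydroxyurea), a log2 difference of 2.68 and the 4th highest. For comparison, 6.94% of genes passed 1.5-fold upwards in the comparison without hydroxyurea and 8.67% in that with it. In MS-275-treated cells, DHRS3 was 3.34 times lower than in untreated ones, a log2 difference of -1.74 and the 5th lowest. In the presence of hydroxyurea it was 2.68 times lower, a log2 difference of -1.42 and the 19th lowest. At least 1.5-fold lower were 6.84% of genes without hydroxyurea and 5.41% with it. These 2 comparisons of MS-275 share no array. Both genes therefore kept the direction and passed 2-fold in separate pairs of arrays, which the choice of the genes had already used. In both backgrounds alike, 4.85% of genes were 1.5-fold higher and 2.92% were 1.5-fold lower.

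Hydroxyurea went with smaller differences, in the same direction as MS-275 for each gene. This measure was not itself used to choose the genes. It rests on the same 4 arrays as the MS-275 differences that were, so its direction is a description and no independent result. Without MS-275, DHRS2 was 1.34-fold higher with hydroxyurea than in untreated cells (log2 difference 0.42), below 1.5-fold and the 552nd highest. With MS-275 present, DHRS2 was 1.92-fold higher with hydroxyurea (MS-275/hydroxyurea against MS-275; log2 difference 0.94), the 78th highest of 7649. At least 1.5-fold higher were 4.84% of genes in that comparison and 3.12% in the comparison without MS-275. In hydroxyurea-treated cells DHRS3 was 1.49 times lower than in untreated ones, a log2 difference of -0.57 at the edge of 1.5-fold. With renewed quantile normalisation it was -0.59 and just past 1.5-fold. At least 1.5-fold lower were 1.27% of genes, and DHRS3 was the 111th lowest. With MS-275 present, DHRS3 was 1.19 times lower with hydroxyurea (log2 difference -0.26), the 820th lowest, and 1.03% of genes were at least 1.5-fold lower. Neither gene passed 1.5-fold with hydroxyurea both without and with MS-275, which 1.36% of genes did upwards and 0.275% downwards. Over the 7649 genes, the quartiles of the hydroxyurea differences were -0.14 and 0.17 without MS-275 and -0.13 and 0.20 with it. The DHRS2 values of 0.42 and 0.94 and the DHRS3 values of -0.57 and -0.26 lay outside these ranges, as many genes do by definition. In either direction, 11.6% and 1.05% of genes had a difference larger in size than that of DHRS2, without and with MS-275. For DHRS3 these shares were 4.76% and 29.5%.

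**Figure D2:**
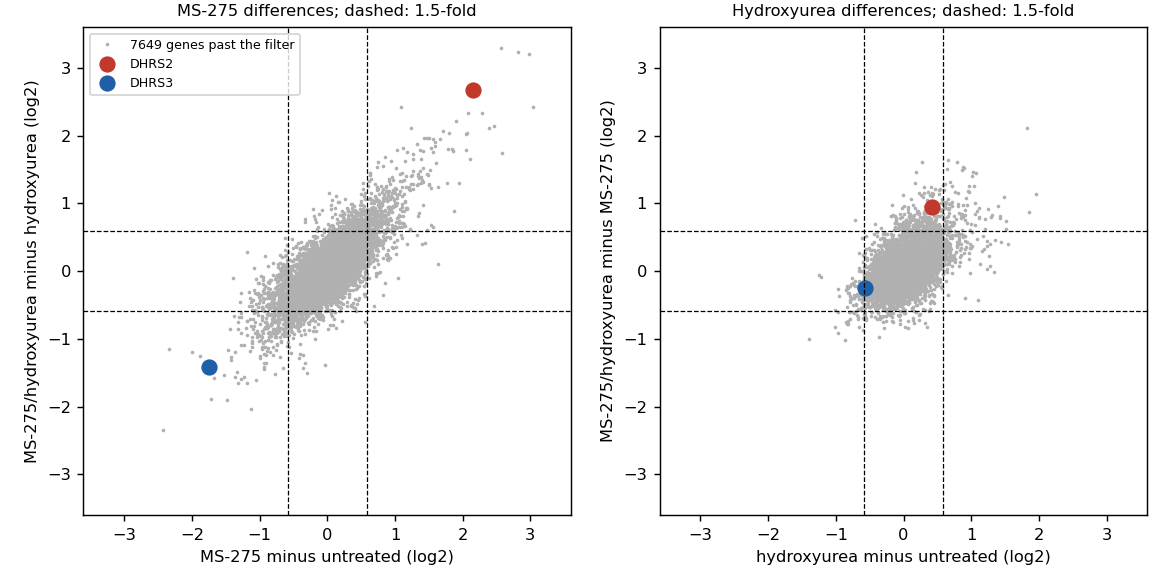
Log2 differences of 7649 genes (grey) with DHRS2 (red) and DHRS3 (blue), 1 array per condition; left, MS-275 without (x) and with hydroxyurea (y), right, hydroxyurea without (x) and with MS-275 (y). For MS-275, DHRS2 lies at 2.15 and 2.68 and DHRS3 at -1.74 and -1.42, toward the ends of the cloud; for hydroxyurea they lie at 0.42 and 0.94 and at -0.57 and -0.26, within the cloud; dashed lines mark 1.5-fold.

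Between MS-275/hydroxyurea-treated and untreated cells, DHRS2 was 8.54-fold higher (log2 difference 3.09, the 6th highest) and DHRS3 3.99 times lower (-2.00, the 5th lowest). With an offset of 32 on the intensities the DHRS2 log2 difference was 2.48, its untreated value being near the median of all clusters (47.0). In this comparison 11.7% of genes were at least 1.5-fold higher and 6.84% at least 1.5-fold lower. DHRS2 thus held 1 order over the arrays, MS-275/hydroxyurea above MS-275, hydroxyurea and untreated cells, and DHRS3 held the reverse. The order itself was common. It was that of DHRS2 in 858 of the 7649 genes (11.2%) and that of DHRS3 in 718 genes (9.39%).
Non-additivity was taken as the log2 difference of the combined treatment less those of the single treatments added up. It was 0.52 for DHRS2, so that the gene was higher with both drugs than the sum of the log2 differences. For DHRS3 it was 0.32, so that the gene fell less with both drugs than that sum. The quartiles over all 7649 genes were -0.14 and 0.19. DHRS2 had the 295th highest value and DHRS3 the 981st. The untreated and hydroxyurea values of DHRS2 are dim, and the lower end of its ratios is the less certain for it.

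DHRS2 and DHRS3 lay at the 2 ends of the SDR family, which follows from their choice by the same MS-275 differences. Besides them, 46 of the family's genes on the list had a named cluster, and 30 of these passed the filter. With MS-275 against untreated cells, 0 of the 30 were at least 1.5-fold higher and 2 were lower. With hydroxyurea present, 2 were higher and 1 was lower. Over all genes these shares were 6.94% and 6.84% without hydroxyurea and 8.67% and 5.41% with it, so that the counts in the family were near or below them. The median log2 difference of the 30 genes was 0.12 and 0.00 in these comparisons, and that of all 7649 genes was -0.01 and 0.00. DHRS11, a reductase of steroids and other carbonyl compounds, was the only one of the 30 past 1.5-fold in both comparisons. Its intensity was 149 with MS-275/hydroxyurea, 160 with MS-275, 250 with hydroxyurea and 271 in untreated cells. It was 1.69 times lower in MS-275-treated than in untreated cells and 1.67 times lower with hydroxyurea present. Like DHRS3 it was lower on both arrays with MS-275, but by less. The other genes behind these counts, named after their values were seen, were FAR2 (-0.83 on the log2 scale without hydroxyurea) and HSDL1 and FAR1 (0.75 and 0.60 with it). FAR1 and FAR2 encode reductases that make fatty alcohols. HPGD, which encodes the enzyme that inactivates prostaglandins, had log2 differences with MS-275 of 0.59 without and 1.40 with hydroxyurea, both past 1.5-fold. Its intensities of 83.5 with MS-275/hydroxyurea, 52.9 with MS-275, 31.5 with hydroxyurea and 35.2 in untreated cells were all below 90.5, and it did not pass the filter.

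**Figure D3:**
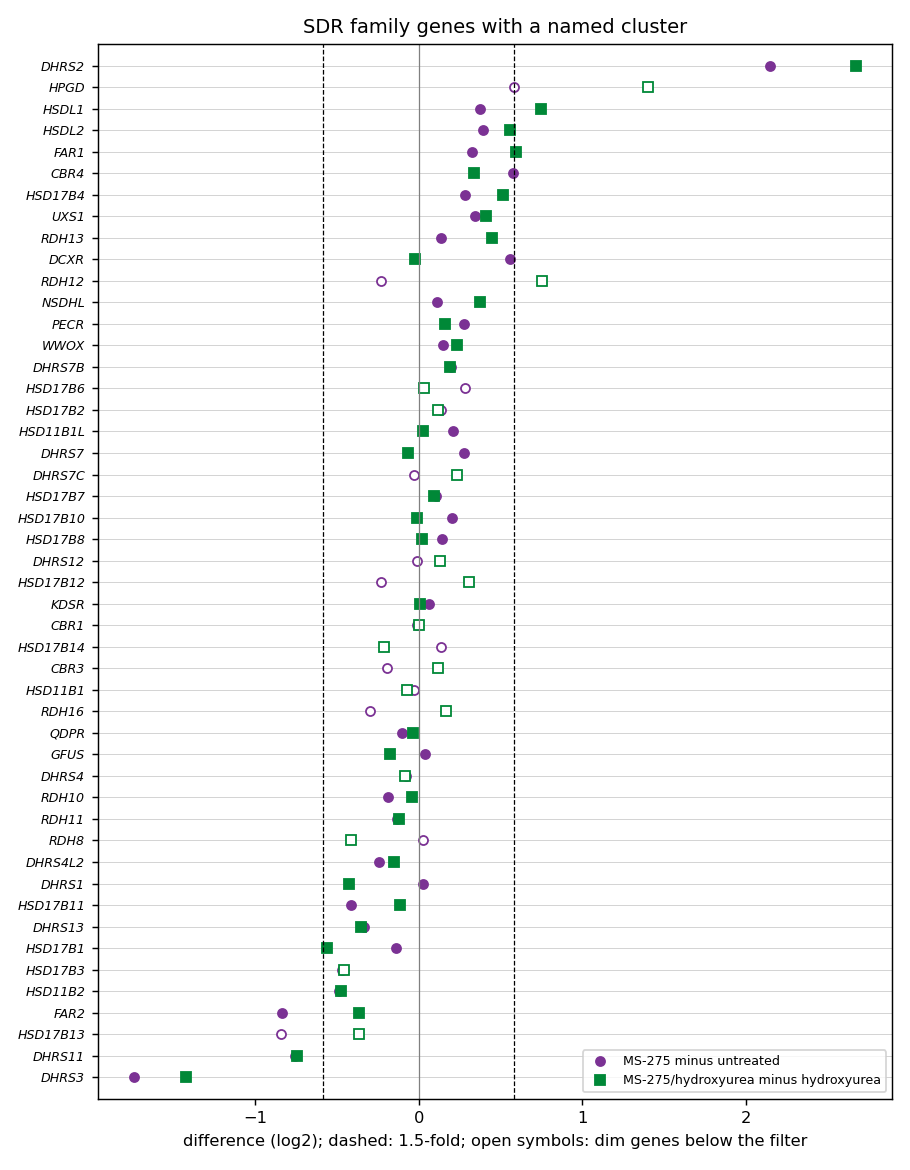
Log2 differences with MS-275 for the 48 SDR genes with a named cluster, against untreated cells (circles) and in the presence of hydroxyurea (squares), sorted by the mean of both; open symbols are genes below the filter on dim genes and dashed lines mark 1.5-fold. DHRS2 (2.15 and 2.68) and DHRS3 (-1.74 and -1.42) lie at the 2 ends, as they were chosen by these differences. Most other genes lie between the dashed lines.

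The nearest relatives by SDR nomenclature were looked up after the values had been seen. DHRS4 and DHRS4L2, of the SDR25C group of DHRS2, are also its next genes on the chromosome. DHRS4, a peroxisomal carbonyl and retinal reductase, had intensities of 81.1 with MS-275/hydroxyurea, 77.3 with MS-275, 85.8 with hydroxyurea and 81.5 in untreated cells. DHRS4L2 had 100.1, 93.9, 111 and 111 in the same order. Their log2 differences with MS-275 were -0.08 and -0.24 without hydroxyurea and -0.08 and -0.15 with it. As DHRS4 and DHRS4L2 are close copies, probes may not separate them from each other. Of the SDR16C group of DHRS3, RDH10 oxidises retinol to retinal and is known to form a complex with DHRS3. Its intensity was 972 with MS-275/hydroxyurea, 554 with MS-275, 997 with hydroxyurea and 631 in untreated cells. RDH10 was thus high on both arrays with hydroxyurea, at 1.58-fold without MS-275 and 1.76-fold with it, while DHRS3 was lower with hydroxyurea. With MS-275 the RDH10 log2 differences were -0.19 and -0.04. HSD17B11, a lipid droplet enzyme of the same group, had log2 differences of -0.41 and -0.11 with MS-275. HSD17B13 had -0.84 and -0.37, past 1.5-fold without hydroxyurea in the direction of DHRS3, but was dim, with intensities of 30.1 to 54.1.

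The neighbours of each gene along the chromosome were looked at next. Of the 5 protein-coding genes on each side, 8 of 10 beside DHRS2 and 7 of 10 beside DHRS3 had a named cluster. These were counted whether or not they passed the filter, while the shares given beside them cover only genes past it. Next to DHRS2, 1 of 8 was at least 1.5-fold higher with MS-275 in both comparisons, beside 4.85% of all genes past the filter. It was CARMIL3, a regulator of actin capping, at 1.67-fold and 1.52-fold, with intensities of 106 with MS-275/hydroxyurea, 114 with MS-275, 69.6 with hydroxyurea and 67.9 in untreated cells. Between DHRS2 and CARMIL3 lie DHRS4 and DHRS4L2, which did not pass 1.5-fold. Of the 8 genes only DHRS4L2 passed the filter and 7 lay below it, CARMIL3 among them. Next to DHRS3, 0 of 7 genes passed 1.5-fold downwards in either MS-275 comparison. As 6.84% and 5.41% of genes past the filter did, so few neighbours show nothing particular. VPS13D, a lipid transfer protein gene and the nearest on one side, was at 0.17 and 0.43 on the log2 scale. AADACL4, the nearest on the other side, was at -0.11 and -0.51 with intensities of 21.0 to 35.8. CFAP107, also dim at 16.0 to 24.2, was 1.51-fold higher without hydroxyurea and at 0.34 on the log2 scale with it. Of the 7 genes, 3 passed the filter (MFN2, MIIP and VPS13D).

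**Figure D4:**
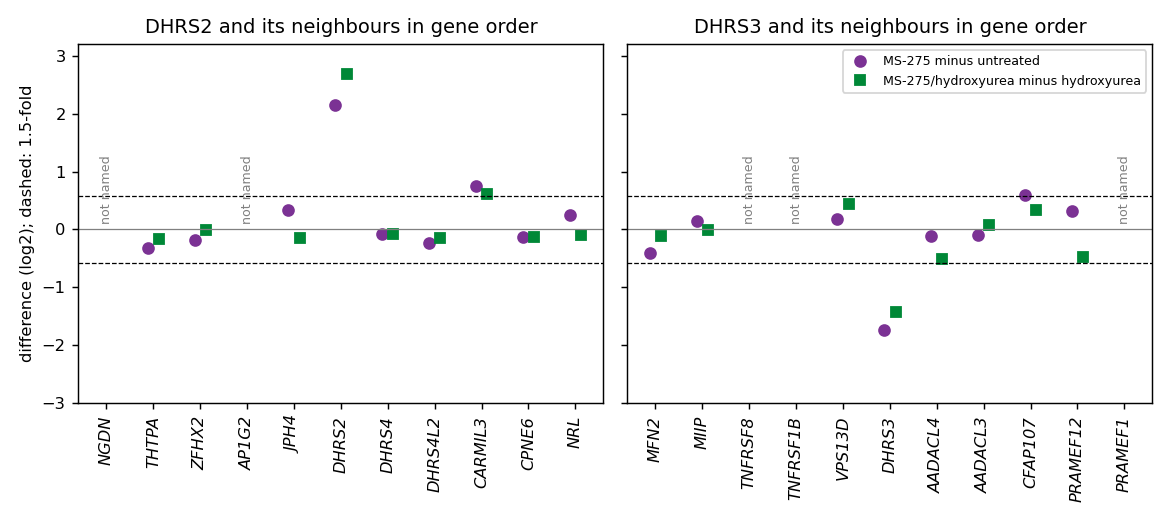
Log2 differences with MS-275 for DHRS2, DHRS3 and the 5 protein-coding genes on each side of them in gene order, against untreated cells (circles) and in the presence of hydroxyurea (squares), 1 array per condition; genes marked "not named" had no named cluster. DHRS2 at 2.15 and 2.68 and DHRS3 at -1.74 and -1.42 stand away from their neighbours, as they were chosen by these differences. Of the neighbours, taken by position only, CARMIL3 (0.74 and 0.61) passed 1.5-fold in both comparisons. Dashed lines mark 1.5-fold.

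Genes of retinoid metabolism were compared with DHRS3. Besides DHRS3, 13 of the 29 other genes listed had a named cluster and 7 passed the filter. With MS-275, 0 of these 7 passed 1.5-fold downwards, either without or with hydroxyurea, beside 6.84% and 5.41% of all genes. LRAT, which stores retinol as esters, was 1.39-fold higher with MS-275 and 1.79-fold higher with hydroxyurea present, and was the only one of the 7 past 1.5-fold with MS-275. Its intensity was 154 with MS-275/hydroxyurea, 117 with MS-275, 86.1 with hydroxyurea and 84.2 in untreated cells. LRAT thus passed the filter only through the arrays with MS-275. Of all genes, 6.94% passed 1.5-fold upwards with MS-275 without hydroxyurea and 8.67% with it. RDH11, another retinal reductase, was at -0.13 and -0.12 on the log2 scale, and RDH13 at 0.14 and 0.45. BCO2, which cleaves carotenoids, was at 0.33 and 0.44. The median of the 7 genes was 0.14 without and 0.11 with hydroxyurea. With hydroxyurea against untreated cells, 3 of the 7 were at least 1.5-fold higher, beside 3.12% of all genes. They were CRABP2, which carries retinoic acid to its receptor (1.60-fold), DGAT1, an acyltransferase that can esterify retinol (1.59-fold), and RDH10. With MS-275 present, 1 of the 7 was at least 1.5-fold higher with hydroxyurea, beside 4.84% of all genes. It was RDH10, and CRABP2 and DGAT1 were at 0.41 and 0.28 on the log2 scale.

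Of 8 other genes of retinoic acid receptors and response with a named cluster, 4 passed the filter. CRABP2 and STRA6 of these 8 are also among the retinoid metabolism genes. CRABP2, FABP5 and PPARD did not pass 1.5-fold with MS-275, with log2 differences of 0.38, 0.24 and 0.52 without hydroxyurea and 0.11, 0.21 and 0.29 with it. NRIP1, a corepressor of nuclear receptors, had the order of DHRS3, as did 9.39% of the 7649 genes. Its intensity was 185 with MS-275/hydroxyurea, 307 with MS-275, 340 with hydroxyurea and 598 in untreated cells. It was 1.95 times lower in MS-275-treated than in untreated cells, 1.84 times lower with MS-275/hydroxyurea than with hydroxyurea, and 1.76 times lower in hydroxyurea-treated than in untreated cells. The retinoic acid receptors and CYP26A1 had no named cluster and were not analysed here.

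DHRS3 is also a lipid droplet protein. Of 18 other lipid droplet genes with a named cluster 12 passed the filter, and 0 of the 12 passed 1.5-fold downwards in either MS-275 comparison, beside 6.84% and 5.41% of all genes. Upwards, 1 of the 12 passed 1.5-fold without hydroxyurea and 0 with it, beside 6.94% and 8.67% of all genes. This was DGAT2, which makes triglycerides. It was 1.67-fold higher in MS-275-treated than in untreated cells and 1.31-fold higher with hydroxyurea present. Its intensity of 77.8 in untreated cells was below 90.5. PLIN2, which coats the droplets, was at -0.55 and -0.28 on the log2 scale, PLIN5 at 0.16 and 0.25, the lipase gene PNPLA2 at 0.29 and 0.30 and FAF2 at 0.23 and 0.12. The median of the 12 genes was 0.13 without and 0.07 with hydroxyurea.

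Genes of carbonyl reductases, an activity like that of DHRS2, were compared together with genes of methylglyoxal removal. Of 7 other genes of carbonyl reductases and of methylglyoxal removal with a named cluster 4 passed the filter, and 0 of the 4 passed 1.5-fold in either MS-275 comparison, beside 6.94% and 8.67% of all genes upwards. CBR4 had log2 differences of 0.58 and 0.34 and the dicarbonyl reductase gene DCXR 0.56 and -0.02. Of the methylglyoxal removal genes, GLO1 had 0.22 and 0.27 and HAGH 0.06 and 0.05. All 4 were above 0 without hydroxyurea, whereas DHRS4, CBR1 and CBR3, below the filter, were at -0.08, -0.01 and -0.19. The median of the 4 was 0.39 without and 0.16 with hydroxyurea, beside -0.01 and 0.00 over all genes. With the dim genes included, the median of the 7 was 0.06 and 0.05, beside 0.00 and -0.01 over all named genes.

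The genes with the most similar profiles were found by the Euclidean distance of the 4 log2 intensities, each centred on the mean of the gene over the 4 arrays. The genes found depend on this measure. With Pearson's correlation in its place, 0 of the 5 were kept for either gene, and without the filter 2 of 5 for DHRS2. Nearest to DHRS2 were CD24, a surface sialoglycoprotein gene, at a distance of 0.39, and MAP2, a neuronal microtubule gene, at 0.49. PAG1, a membrane adaptor gene, followed at 0.52, FN1, which encodes fibronectin, at 0.55 and the pseudogene CEP192P1 at 0.60. CD24 had intensities of 767 with MS-275/hydroxyurea, 403 with MS-275, 166 with hydroxyurea and 108 in untreated cells. These were in the same order as those of DHRS2. All 5 of these genes were between 3.26-fold and 9.78-fold higher with MS-275 in the 2 comparisons, which follows from the way they were found. The 9.78-fold was that of CEP192P1, at 48.6 with hydroxyurea and 47.5 in untreated cells, near the median of all clusters (47.0). It passed the filter only through the arrays with MS-275, and its ratios are uncertain. PAG1 and MAP2 were also below 90.5 in untreated cells, at 66.6 and 88.0.
Nearest to DHRS3 were the cytokine gene LIF at a distance of 0.27, the NF-κB subunit gene NFKB1 at 0.30 and ARL14EPL at 0.32. IRS1, an adaptor of insulin signalling, followed at 0.33 and the protocadherin gene PCDH7 at 0.34. LIF had intensities of 94.9 with MS-275/hydroxyurea, 110 with MS-275, 276 with hydroxyurea and 317 in untreated cells. The 5 genes were lower with hydroxyurea than in untreated cells by less than DHRS3, with log2 differences of -0.37 to -0.20 beside -0.57. That they were lower follows in part from the way they were found.

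**Figure D5:**
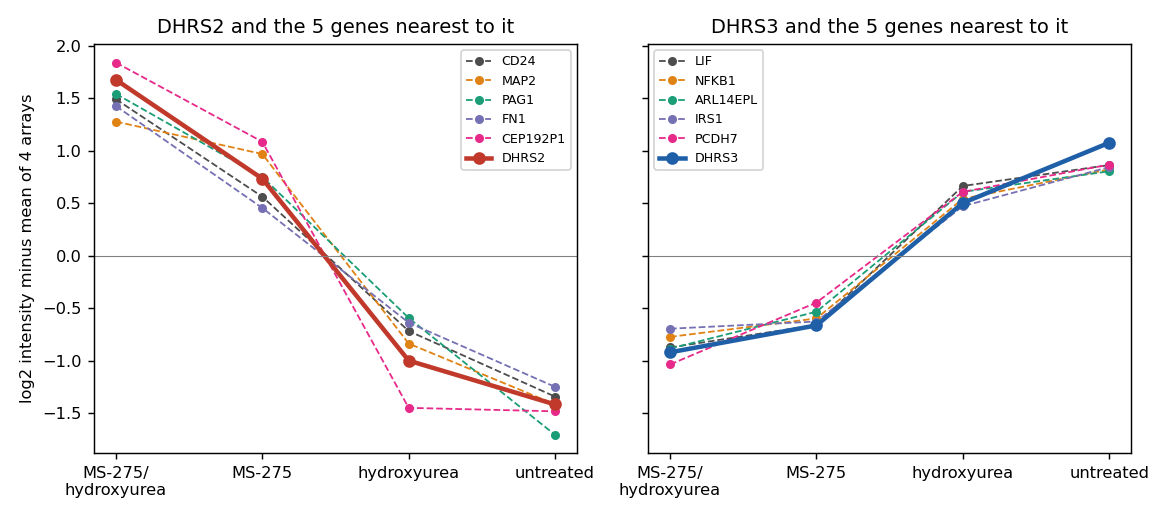
Log2 intensity minus the mean of the 4 arrays for DHRS2 (left, red) and DHRS3 (right, blue) and the 5 genes nearest to each by Euclidean distance (dashed), over MS-275/hydroxyurea, MS-275, hydroxyurea and untreated cells, 1 array each. The distances run from 0.39 to 0.60 for DHRS2 and from 0.27 to 0.34 for DHRS3, and the steepest step lies between the arrays with MS-275 and those without it.

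The label of the cells was set against markers of colorectal epithelium. EPCAM had intensities of 865 to 1152 and KRT18 of 1646 to 2090 over the 4 arrays, and 4 of 10 epithelial markers with a named cluster passed the filter. KRT19 moved among these, with 628 with MS-275/hydroxyurea, 1083 with MS-275, 552 with hydroxyurea and 571 in untreated cells. CDX2, CDX1, VIL1, LGR5, CEACAM5 and CEACAM6 did not pass the filter. CEACAM5, LGR5 and CEACAM6 were dim on all arrays. They were higher with MS-275/hydroxyurea, at 73.9, 75.4 and 32.4, than in untreated cells, at 20.2, 28.5 and 14.1. Of 6 markers of other cell types 1 passed the filter, the lysosomal gene CD68 (177 to 284), which is not limited to macrophages. Their summed intensity was 403 with MS-275/hydroxyurea, 352 with MS-275, 349 with hydroxyurea and 291 in untreated cells, and that of the epithelial markers was 4117, 4556, 3897 and 3800. The fibroblast genes DCN and LUM were at 17.3 or lower. The part of such shifts in the DHRS2 and DHRS3 values was not tested.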

How the data were processed

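The authors hybridised RNA of each condition to 1 array and processed the arrays with RMA, a procedure of background correction, normalisation between arrays and summary of probes. The values they deposited are linear intensities. For RMA, no software or version is named in the sources used here. The platform table paired 16098 of 53617 clusters with 1 gene symbol and 0 with several. All 16098 symbols matched RefSeq records by Entrez identifier, and 0 needed an update. The other 37519 clusters are unnamed here. For the 779 genes with several clusters the brightest was used.

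Log2 ratios of intensities were taken with no pseudocount, and a gene was counted past 1.5-fold. All ranks and counts cover the genes past the filter unless stated. Computing used Python 3.11.15, numpy 2.4.6, pandas 2.3.3 and matplotlib 3.10.9, and the steps were tested on simulated data.

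The 2 genes and the 6 gene lists, of which 1 is not reported here, were chosen with earlier results of these data known. Named from the lists were SDR genes past 1.5-fold in both MS-275 comparisons and, elsewhere, up to 6 genes past the filter with the largest mean MS-275 difference; the neighbours and 5 nearest profiles were also named. Nearest profiles left out olfactory receptors, keratin-associated proteins, antisense genes, small RNAs and uncharacterised loci. DGAT1, HSD17B13, FAR1, FAR2, HSDL1 and the remaining SDR relatives were named after their values were seen. Alternatives were an offset of 32 on the intensities, array centring, renewed quantile normalisation, the mean of all clusters, other filters and 2-fold. Protein sequences were not used here.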

Additional observations from a re-analysis of the deposited data

Results flagged for a closer look

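Among 75 genes checked, 3 differed in direction without and with the other drug by more than 0.18 on the log2 scale on both sides, a robust spread of a difference taken from these arrays; the difference was not tested. The epithelial marker CEACAM6, with intensities of 10.0 to 32.4, had a hydroxyurea difference of 0.59 with MS-275 and of -0.49 without it. DCXR had a hydroxyurea difference of -0.20 with MS-275 and of 0.38 without it. PRAMEF12, a neighbour of DHRS3 with intensities of 13.2 to 21.9, had an MS-275 difference of -0.47 with hydroxyurea and of 0.33 without it.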

How the results depend on the processing

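No paired analysis was possible because each condition has 1 array. All 12 differences of DHRS2 and DHRS3, non-additivity included, kept their sign under array median centring, renewed quantile normalisation and an offset of 32. The mean of all clusters could not change them, as each gene had 1 cluster. An offset cannot reverse a ratio of 2 arrays, and RMA had already normalised the arrays, so these checks are weak. Centring moved the differences by at most 0.04 and quantile normalisation by at most 0.06 on the log2 scale. Quantile normalisation took 1 of 12, the hydroxyurea difference of DHRS3 without MS-275, just past 1.5-fold. The offset of 32 drew the larger differences toward 0. For DHRS2 it gave 1.62 for MS-275 without and 2.21 with hydroxyurea, 2.48 for MS-275/hydroxyurea and 0.27 for hydroxyurea without MS-275. For DHRS3 it gave -1.50, -1.18 and -1.70 for MS-275 without and with hydroxyurea and for MS-275/hydroxyurea.

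Counts of genes past 1.5-fold in either direction depended on the filter and the fold. For MS-275 without hydroxyurea they were 1054, against 1584 without a filter, 505 with a filter at percentile 75 (an intensity of 238.5) and 221 at 2-fold. For MS-275 with hydroxyurea they were 1077, against 1859, 471 and 242. For hydroxyurea without MS-275 they were 336, against 773, 152 and 48, and 204 with the offset. For hydroxyurea with MS-275 they were 449, against 829, 219 and 55. For MS-275/hydroxyurea they were 1418, against 692 at percentile 75 and 369 at 2-fold. Without the filter, the median MS-275 difference without hydroxyurea was 0.0582 for carbonyl reductases and methylglyoxal removal and -0.0234 for retinoid metabolism. For retinoic acid response it was 0.18, an alternative chosen after seeing the data. For retinoid metabolism with hydroxyurea the median was -0.0372. Of the 5 genes nearest to DHRS2, 2 were kept without the filter and 0 with Pearson's correlation in place of the distance. Of those nearest to DHRS3, 5 were kept without the filter and 0 with the correlation. Intensities near background, as for DHRS2 without MS-275, compress ratios.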
